A study of Mus musculus with 55 samples.

Results

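The transcripts of 10 surface antigens that are used to stage B cell precursors (Kit, Il2ra, Ptprc, Cd2, Cd24a, Cd93, Spn, Enpep, Mme and Ly6d) were followed through 5 B lineage populations of mouse bone marrow. All probe sets whose annotated gene symbol was one of the 10 were taken, from the 6137 genes with a symbol of their own on the arrays. They gave 11 of the 13057 probe sets other than controls, 4 on the first array set and 7 on the second, here called the b set. Il2ra had a probe set on each array set and every other gene had 1. All 11 passed the filter on dim probe sets, and 8 carried the suffix that on arrays of this kind marks probes shared with other sequences of the same gene or family.

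The populations were sorted by surface antigens. Pre-BI cells were B220+ c-kit+ (6 preparations). Large and small pre-BII cells were B220+ CD25+ without surface immunoglobulin and were separated by cell size (5 preparations each). Immature B cells were B220low with surface IgM and mature B cells were B220high with surface IgM (5 preparations each). Strain, age, genotype and treatment of the mice are not given in the sources used here, nor whether preparations came from separate animals. A p-value here therefore reflects the spread among these preparations alone, and that spread may be technical. Of the members, 3 encode antigens of the gates (Ptprc for B220, Kit for c-kit, Il2ra for CD25), so the cells had been selected for those proteins before RNA was measured.

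Developing B cells change their surface proteins in a fixed order as they rearrange first the heavy chain and then the light chain locus. The stem cell factor receptor c-kit belongs to the earliest committed cells, CD25 to pre-BII cells, and B220 is carried throughout and is densest on mature cells. CD2 appears at the pre-BII stage, CD93 and the aminopeptidase BP-1 (Enpep) are lost on the way to the mature cell, and heat-stable antigen (CD24) is lower on mature cells than on precursors. A surface protein can also be set by splicing, transport and shedding, which an array does not read.

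RefSeq sequence upstream of the start site was found for 6 of the 10 members (build GRCm38.p6). It is shown for Kit and Enpep, whose transcripts fell along the series, and for Ptprc, whose transcript rose, as the 250 bases before the first listed start, 5′ to 3′ on the strand of the gene. Capitals mark GGAA, the core letters of ETS family sites, read on either strand. The Kit window is chr5:75574737-75574986 (plus strand), the Enpep window chr3:129332750-129332999 (minus strand) and the Ptprc window chr1:138175306-138175555 (minus strand).
Kit: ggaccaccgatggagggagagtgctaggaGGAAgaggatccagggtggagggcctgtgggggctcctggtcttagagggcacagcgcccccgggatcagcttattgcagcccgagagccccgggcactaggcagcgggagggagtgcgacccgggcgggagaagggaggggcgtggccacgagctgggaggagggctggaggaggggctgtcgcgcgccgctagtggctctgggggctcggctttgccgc
Enpep: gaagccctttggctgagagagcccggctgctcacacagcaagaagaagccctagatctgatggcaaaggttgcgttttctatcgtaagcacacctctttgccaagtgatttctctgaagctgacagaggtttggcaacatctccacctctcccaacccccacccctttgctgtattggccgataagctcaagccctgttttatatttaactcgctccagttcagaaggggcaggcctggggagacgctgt
Ptprc: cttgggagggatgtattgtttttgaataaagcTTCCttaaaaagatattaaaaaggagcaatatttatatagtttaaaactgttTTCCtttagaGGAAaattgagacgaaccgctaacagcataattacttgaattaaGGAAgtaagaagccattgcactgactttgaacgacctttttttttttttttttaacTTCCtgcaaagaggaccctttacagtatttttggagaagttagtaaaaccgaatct
The Ptprc window held 5 GGAA matches, the Kit window 1 and the Enpep window 0, and GGAA was found in 93.4% of 32851 windows of this length, with a median of 3 matches. The E-box letters CANNTG, a palindrome, occurred 1 time in the Enpep window and 0 times in the Kit and Ptprc windows, against 66.2% of all windows with a match. A match is a description of the letters and says nothing of binding.

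Intensities are in arbitrary units after quantile normalisation of each array set, so a value says how bright a probe set was relative to the same probe set in other preparations, and equal ranks on different arrays give equal values. A noise limit was set at 2 robust standard deviations of the negative values, 251 for the first set and 319 for the b set, and values at or under it are not distinguished from background here. It was exceeded by 40.1% of values on the first set and by 20.1% on the b set. The 26 preparations were read on 55 arrays, of which 54 were used, because an array titled as a second one of mature B sort 1 held the values of mature B sort 11 and was kept once, as sort 11. On the first array set, an 18S control read 3741 to 14192 on 12 arrays of sorts 1 to 3 and −452 to 28 on 15 arrays of sorts 8 to 11, so values are also given within these blocks of sorts. No such reading is given here for the b set. Cd79b, a signalling chain of the B cell receptor, was bright in every population, with means from 4666 in pre-BI to 12816 in immature cells. Pax5 averaged 67 to 115, under the limit, and Cd22 was under it in pre-BI and large pre-BII cells. Of 6 T cell probe sets none had a population mean above the limit. Cd3e was highest in small pre-BII cells (mean 243, 3 of 5 preparations above the limit), and Thy1 in pre-BI cells (mean 302, 2 of 6 above it, against −342 to −89 in the other populations), where it passed against large pre-BII cells (adjusted p = 1.11e-05). The summed granulocyte signal (11 probe sets) was 2534 to 12179 in pre-BI, 2541 to 6005 in large pre-BII, 2715 to 4354 in small pre-BII preparations, 3600 to 5520 for immature and 4512 to 7723 for mature ones, with Mpo at 13 to 81 on average. The brightest of these probe sets was Ngp, with means of 4187, 1745, 1779, 2610 and 3324 in the same order. Prtn3 was highest in mature cells instead (means 77, 37, −6, 285 and 417), and S100a8 on the b set differed little (417, 414, 492, 408 and 490). The monocyte sum (6 probe sets) was 4489 to 9367 in pre-BI, 2330 to 6032 in large pre-BII, 1710 to 3002 in small pre-BII, 2345 to 4790 for immature and 3600 to 4990 for mature preparations. Most of that sum was Lyz2, with means of 5503, 3033, 1781, 2949 and 3700 in the same order. Cd14 did not follow it, with means of 387, 407, 519, 351 and 442. Csf1r, Adgre1, Mrc1 and Ctsg were under the limit in every preparation. Gzma, the granule protease of the NK list, had a mean of 1333 in pre-BI cells and 353 in large pre-BII cells and was under the limit elsewhere. The other NK gene on the arrays, Klrb1c, had means of 28 to 131, all under the limit and highest in small pre-BII cells. Erythroid sums (5 probe sets) were 4768 to 15003 and plasma cell sums (6 probe sets) 383 to 1093 over all preparations, with the populations overlapping. Most of the erythroid sum was 1 probe set of Hba-a1, with means of 8675 to 11208, whereas the other probe set of that gene had means of 52 to 166, under the limit. The part of such cells in the differences of Kit, Enpep and Cd93, the members with their highest mean in pre-BI cells, was not tested. In RNA of a whole sorted population, fewer positive cells and less RNA per cell cannot be told apart.

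Across the populations, 7 of the 11 probe sets varied by limma's moderated F test (adjusted p under 0.05), against 14.8% of the 10288 probe sets tested. These were Ptprc, Kit, Cd2, Cd24a, Cd93, Enpep and Ly6d. Spn, Mme and both Il2ra probe sets did not pass. In the comparisons that follow, "rose" and "fell" are used for an adjusted p under 0.05 (limma, Benjamini-Hochberg over all tested probe sets), and folds and log2 differences are between means of log2 values raised to the noise limit. Differences under another setting or within a block of sorts are those fitted by limma.

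Ptprc encodes CD45, the phosphatase whose B cell isoform is B220. Its transcript was present throughout, rose at the step to small pre-BII cells and again at the step to immature cells, and stood highest in mature cells. Pre-BI preparations read 2148 at the lowest, 2978 at the median and 3769 at the highest (2928 ± 670, mean ± SD, n = 6). Large pre-BII preparations read 2824, 3405, 2282, 2436 and 2779 (2745 ± 434, n = 5). The early populations overlapped and their difference did not pass (log2 difference −0.07 ± 0.17 SE, adjusted p = 0.978).

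Small pre-BII preparations read 5200, 3860, 4013, 4993 and 4252 for Ptprc (4464 ± 599, n = 5), all above every large pre-BII preparation. The rise was 1.63-fold (0.70 ± 0.13 SE, adjusted p = 0.00315). Immature preparations read 9039, 7327, 7489, 8386 and 9380 (8324 ± 911, n = 5), again with no overlap, 1.87-fold above small pre-BII (0.90 ± 0.11 SE, adjusted p = 0.000457). Mature preparations read 9572, 9317, 9039, 8972 and 8972 (9174 ± 264, n = 5) and overlapped the upper immature values. The difference between mature and immature cells did not pass (1.11-fold, 95% interval of the log2 difference −0.16 to 0.46, adjusted p = 0.941), although the gates placed them at low and high B220. From pre-BI to mature cells the Ptprc transcript rose 3.20-fold (1.68 ± 0.14 SE, adjusted p = 2.8e-09). The isoforms of CD45 were not told apart here, so these values are of Ptprc as a whole. Within sorts 1 to 3 alone, the steps to small pre-BII and to immature cells had log2 differences of 0.53 and 0.86 without passing (adjusted p = 0.689 and 0.443), and within sorts 8 to 11 they were 0.82 and 0.93 (adjusted p = 0.0272 and 0.03). In the values as deposited they were 0.66 and 1.07 (adjusted p = 0.798 and 0.693).

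**Figure D1:**
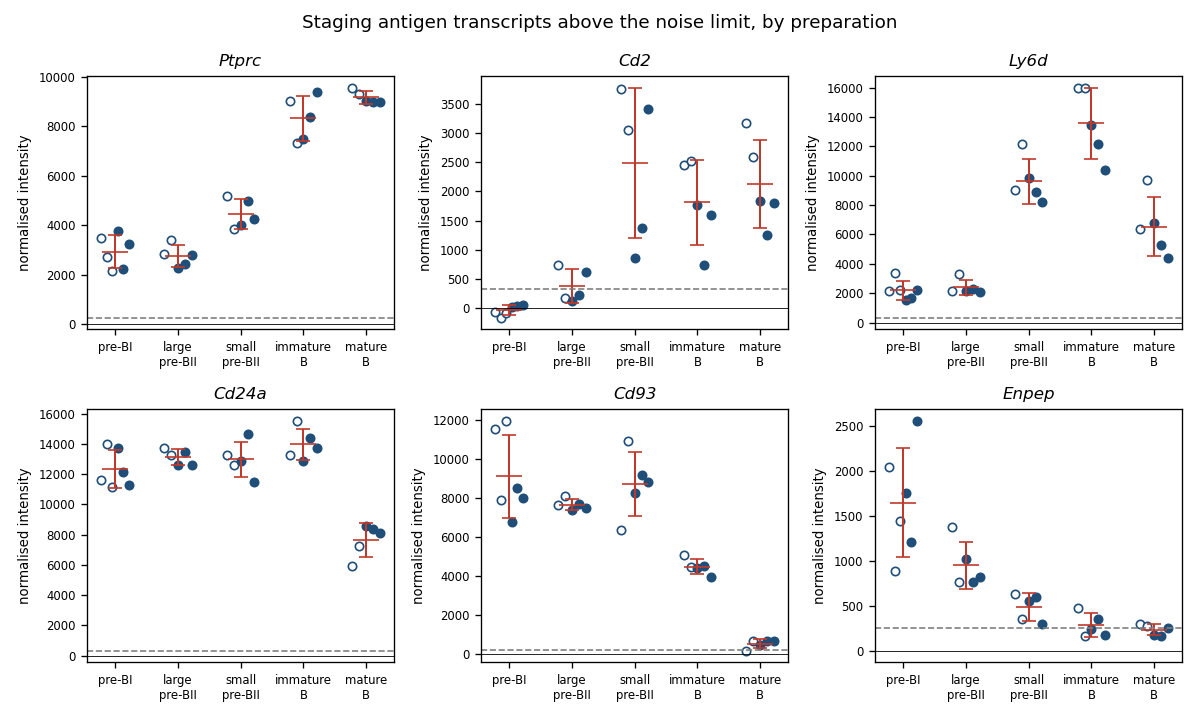
Normalised intensity (linear scale, arbitrary units) of the 6 members above the noise limit in at least 1 population, by population, with 1 point per preparation; open circles are sorts 1 to 3, filled circles sorts 8 to 11, red bars mean ± SD and the dashed line the noise limit. Ptprc, Cd2 and Ly6d are higher in small pre-BII, immature and mature cells than in pre-BI cells, Enpep declines along the series, and Cd24a and Cd93 are lowest in mature cells.

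Kit encodes the receptor for stem cell factor, the antigen of the pre-BI gate. Its transcript was dim, at or near the noise limit in pre-BI cells and under it in every other preparation. Pre-BI preparations read from 176 to 356 with a median of 289 (285 ± 68, n = 6), and 2 of the 6 exceeded the limit. Large pre-BII preparations read 84, 195, 72, −87 and 99, and small pre-BII preparations 111, 16, 185, 82 and −21. A single preparation of each pre-BII population reached into the pre-BI range. Immature preparations read 72, 120, 22, −4 and −84, and mature preparations 17, 22, −72, 1 and −42, all under the lowest pre-BI value.

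Kit fell from pre-BI to immature cells (adjusted p = 0.0088) and to mature cells (adjusted p = 0.00036). The steps to large and small pre-BII did not pass (adjusted p = 0.312 and 0.0669). No fold is given, since most pre-BI values lay under the noise limit. With the floor raised to that limit Kit left the test, and within sorts 1 to 3 neither fall passed (adjusted p = 0.589 for immature and 0.051 for mature cells), whereas both passed within sorts 8 to 11 (adjusted p = 0.0214 and 0.00973). With a floor at the 25th percentile the fall to immature cells had an adjusted p of 0.0647.

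Il2ra encodes the interleukin-2 receptor alpha chain, CD25, the antigen of the pre-BII gates. Neither probe set showed it reliably above background in any population. On the first set the small pre-BII preparations read 437, 144, 89, 114 and 71, of which sort 1 alone exceeded the limit. Large pre-BII preparations, sorted by the same antigen, read −10, 11, 56, 70 and −6. All small pre-BII values lay above all large ones, 71 against 70 at the nearest, and the difference did not pass (adjusted p = 0.294, with a 95% interval of the fitted log2 difference of 0.03 to 1.35).

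Outside the pre-BII gates the first-set Il2ra probe set read −20 to 72 in pre-BI (median 65), 125, 30, −29, −23 and 107 in immature, and 117, 37, 72, −106 and 77 in mature preparations. These overlap the pre-BII values. On the b set all 26 values lay between −90 and 172 and under the limit. The F test adjusted p was 0.501 for the first-set and 0.821 for the b-set probe set. A CD25 transcript difference between the populations was not detectable at this signal over background, and the data do not show that it is absent.

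Spn encodes CD43, a sialoglycoprotein of early precursors, and Mme encodes CD10, a neutral endopeptidase. Neither gave a value above the noise limit in any of 26 preparations. Spn read 12 to 186 in pre-BI, −57 to 170 in large pre-BII, 43 to 246 in small pre-BII, −67 to 278 in immature and 34 to 165 in mature cells (F test adjusted p = 0.768). The 5 ranges overlap, so the loss of CD43 that the surface protein shows had no measurable counterpart here. Mme read −92 to 79, −81 to −7, 3 to 126, −108 to 130 and −108 to 38 in the same order (F test adjusted p = 0.647), and its ranges overlap in every pair but large against small pre-BII cells, all of it under the noise limit (adjusted p = 0.405).

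**Figure D2:**
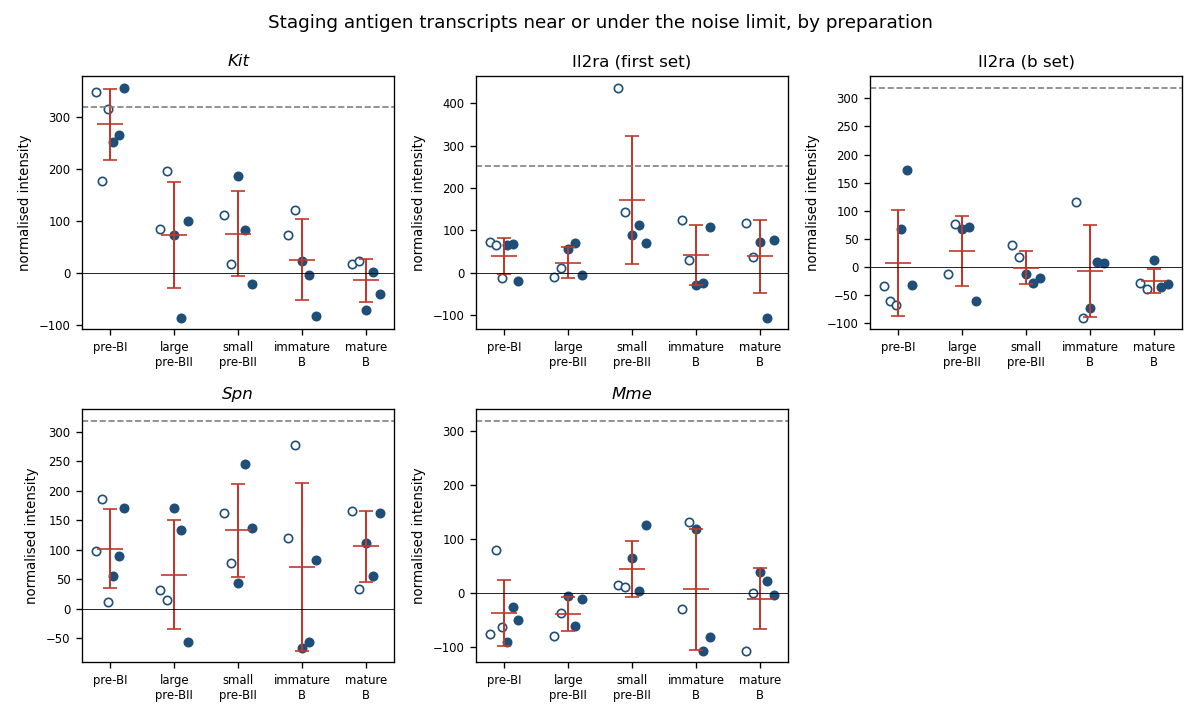
Normalised intensity (linear scale, arbitrary units) of the 5 dim probe sets (Kit, Il2ra on each array set, Spn and Mme) by population, with 1 point per preparation; open circles are sorts 1 to 3, filled circles sorts 8 to 11, red bars mean ± SD and the dashed line the noise limit. Values above the line are 2 pre-BI preparations for Kit (348 and 356 against 319) and 1 small pre-BII preparation for Il2ra on the first set (437 against 251).

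Cd2 encodes an adhesion receptor that is used to separate pre-BI from pre-BII cells. Its transcript was under the noise limit in all pre-BI preparations, intermediate in large pre-BII cells and bright from small pre-BII cells on. Pre-BI preparations read −166 to 52 with a median of −20 (−32 ± 85, n = 6). Large pre-BII preparations read 746, 167, 116, 226 and 619 (375 ± 287, n = 5), all above the pre-BI range, with sorts 1 and 10 above the limit. Cd2 rose at this step (adjusted p = 5.42e-05), and no fold is given because 3 of 5 large pre-BII values lay under the limit.

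The rise of Cd2 in large pre-BII cells rested on values under the noise limit. With the floor at the 60th percentile the log2 difference was 1.37 (adjusted p = 0.0869), with the floor at the noise limit 0.44 (adjusted p = 0.736), and within sorts 8 to 11 2.90 (adjusted p = 0.0693). Within sorts 1 to 3 it passed (adjusted p = 0.019).

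Small pre-BII preparations read 3757, 3043, 863, 1374 and 3405 for Cd2 (2488 ± 1289, n = 5), the lowest of them above the highest large pre-BII value. Cd2 rose at least 4.99-fold at this step, a lower bound since 3 of the 5 large pre-BII values were raised to the limit (2.32 ± 0.50 SE, adjusted p = 0.0028). With a floor at the 25th percentile the adjusted p was 0.0768. Immature preparations read 2458, 2515, 1760, 735 and 1592 (1812 ± 729) and mature ones 3174, 2587, 1837, 1256 and 1792 (2129 ± 752). The later 3 populations overlapped and their order was not resolved (immature against small pre-BII adjusted p = 0.949, mature against immature adjusted p = 0.991). Against pre-BI cells, Cd2 was at least 6.75-fold higher in small pre-BII cells (adjusted p = 3.72e-09), at least 5.22-fold in immature cells (adjusted p = 4.5e-09) and at least 6.35-fold in mature cells (adjusted p = 1.59e-09).

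Preparations of one population spread widely for Cd2, 863 to 3757 in small pre-BII cells. Means of sorts 1 to 3 and of sorts 8 to 11 were 3400 and 1881 in small pre-BII, 2486 and 1362 in immature and 2880 and 1628 in mature cells. Repeat arrays of mature B sort 3 read 2359 and 2814, 1.19-fold apart.

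Ly6d encodes a small GPI-anchored protein, known as ThB, of the lymphoid Ly6 family. Its transcript was above the noise limit in every preparation of pre-BI and large pre-BII cells, rose sharply in small pre-BII cells, and fell from immature to mature cells. Pre-BI preparations read 1549 to 3394 with a median of 2161 (2184 ± 657, n = 6), and large pre-BII preparations 2158, 3283, 2179, 2284 and 2110 (2403 ± 496, n = 5). These overlapped and the difference did not pass (adjusted p = 0.941). Small pre-BII preparations read 9015, 12162, 9811, 8889 and 8222 (9620 ± 1529, n = 5), far above every earlier value.

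The rise of Ly6d at the small pre-BII step was 4.03-fold (2.01 ± 0.15 SE, adjusted p = 1.62e-07). Immature preparations read 15949, 15949, 13477, 12162 and 10389 (13585 ± 2420, n = 5) and overlapped the upper small pre-BII values. The step of 1.41-fold (0.49 ± 0.15 SE) did not pass (adjusted p = 0.369), but did with sort number as a replicate block (adjusted p = 0.0375). In this pair of populations 3 sort numbers were shared, with correlated deviations (r from 0.137 to 0.25), but unequal numbers were not compared, so pairing was not established. Mature preparations read 6359, 9709, 6762, 5310 and 4416 (6511 ± 2009, n = 5), all under the lowest immature value. Ly6d fell 2.13-fold from immature to mature cells (−1.09 ± 0.22 SE, adjusted p = 0.00281), and its level in mature cells was still 2.98-fold above pre-BI cells (adjusted p = 1.65e-06). That fall did not pass in the values as deposited (adjusted p = 0.13), with trimmed-mean scaling (adjusted p = 0.0558) or within sorts 1 to 3 (log2 difference −1.02, adjusted p = 0.493).

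The level of Ly6d in mature cells overlapped that in small pre-BII cells (1.52-fold lower in mature cells, adjusted p = 0.116, and 0.0275 with the block of sorts 1 to 3 and 8 to 11). Ly6d was lower in sorts 8 to 11 than in sorts 1 to 3 in all 5 populations, by means of 1796 and 2572 in pre-BI and 5496 and 8034 in mature cells. The rise at the small pre-BII step was of like size in either block (log2 difference 1.98 in sorts 1 to 3 and 2.03 in sorts 8 to 11, adjusted p = 0.0309 and 5.24e-05).

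Cd24a encodes heat-stable antigen, a short GPI-anchored glycoprotein. It was bright in all populations and lower in mature cells than in each of the others. Pre-BI preparations read 11128 to 13959 with a median of 11899 (12316 ± 1246, n = 6). Large pre-BII preparations read 13749, 13276, 12600, 13477 and 12600, small pre-BII preparations 13276, 12600, 12845, 14660 and 11465, and immature preparations 13276, 15541, 12845, 14373 and 13749. These 4 populations overlapped, and none of the 6 comparisons among them passed (adjusted p from 0.361 to 0.963).

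Mature preparations read 5894, 7222, 8573, 8391 and 8131 for Cd24a (7642 ± 1107, n = 5), all under the lowest of the other 21. Cd24a fell 1.84-fold from immature to mature cells (−0.88 ± 0.11 SE, adjusted p = 4.15e-06), and mature cells were 1.62-fold under pre-BI, 1.73-fold under large pre-BII and 1.71-fold under small pre-BII cells. The groups were also apart in the values as deposited, 6320 to 8332 in mature and 10516 to 15432 in all other preparations (adjusted p = 0.00453 for the fall from immature cells). With each array scaled to a common trimmed mean the fall was of like size (−0.87) but did not pass (adjusted p = 0.0518), nor did it with scaling to the 75th percentile (−0.93, adjusted p = 0.198) or within sorts 1 to 3 (−1.14, adjusted p = 0.0801). The other 3 differences of mature cells did not pass under either scaling (adjusted p from 0.0601 to 0.343), and that from pre-BI cells shrank from −0.70 to −0.44 with the trimmed mean.

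Cd93 encodes the C-type lectin-like receptor that the antibody AA4.1 detects, a marker of immature B lineage cells. Its transcript was bright in the 3 precursor populations, lower in immature cells and lowest in mature cells. Pre-BI preparations read 6802 to 11994 with a median of 8271 (9128 ± 2124, n = 6). Large pre-BII preparations read 7652, 8109, 7420, 7728 and 7489 (7679 ± 270), and small pre-BII preparations 6383, 10949, 8266, 9218 and 8818 (8727 ± 1650). The precursors overlapped and none of the 3 differences among them passed (adjusted p from 0.859 to 0.952).

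Immature preparations read 5124, 4465, 4428, 4534 and 3988 for Cd93 (4508 ± 406, n = 5), with no overlap with any precursor value. The fall from pre-BI cells was 1.99-fold (−0.99 ± 0.15 SE, adjusted p = 0.00787), whereas the difference from small pre-BII cells, 1.91-fold (−0.94 ± 0.14 SE), had an adjusted p of 0.0522. This adjusted p was 0.00707 with the floor at the noise limit, 0.00572 within sorts 8 to 11, 0.898 within sorts 1 to 3 and 0.0897 when the sort number entered as a replicate block. The fall from pre-BI cells did not pass in the values as deposited (log2 difference −0.57, adjusted p = 0.84) or within sorts 1 to 3 (adjusted p = 0.456). The difference from large pre-BII cells (1.71-fold) had an adjusted p of 0.0645.

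Mature preparations read 188, 713, 481, 679 and 708 for Cd93 (554 ± 226, n = 5), and 4 of the 5 exceeded the noise limit. Cd93 fell at least 8.50-fold from immature to mature cells (−3.09 ± 0.29 SE, adjusted p = 7.7e-09), the largest difference between consecutive populations among the members on noise-limited values; the fitted Cd2 difference from pre-BI to large pre-BII cells, 4.24, rests on values under the limit. From pre-BI to mature cells it fell at least 16.9-fold (−4.08 ± 0.32 SE, adjusted p = 3.66e-12). Within sorts 1 to 3 the log2 difference of the last step was −3.71 (adjusted p = 0.0716).

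Enpep encodes glutamyl aminopeptidase, the BP-1 antigen of late pro-B and pre-B cells. Its transcript was highest in pre-BI cells and declined by small steps along the series. Pre-BI preparations read 881 to 2558 with a median of 1598 (1647 ± 604, n = 6), and large pre-BII preparations 1379, 763, 1021, 768 and 825 (951 ± 261, n = 5). These overlapped and the difference of 1.68-fold did not pass (adjusted p = 0.35). Small pre-BII preparations read 631, 348, 556, 595 and 295 (485 ± 153, n = 5), all under the lowest large pre-BII value. This step of 2.00-fold (log2 difference −0.998 ± 0.276 SE) had an adjusted p of 0.0748, and of 0.0137 with the floor at the noise limit, 0.72 within sorts 1 to 3 and 0.265 within sorts 8 to 11.

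Immature preparations read 479, 170, 237, 353 and 176 for Enpep (283 ± 132), with 2 of 5 above the noise limit, and mature preparations 300, 278, 178, 166 and 257 (236 ± 60), with 3 of 5 above it. Both overlapped the small pre-BII values or each other, and neither step passed (adjusted p = 0.285 and 0.986). Over longer spans Enpep fell 3.35-fold from pre-BI to small pre-BII cells (adjusted p = 0.000302), at least 5.08-fold to immature cells (adjusted p = 7.84e-07) and at least 5.82-fold to mature cells (−2.54 ± 0.23 SE, adjusted p = 2.3e-07). Large pre-BII cells stood at least 3.03-fold above immature and at least 3.47-fold above mature cells (adjusted p = 0.000224 and 5.41e-05). These are lower bounds because values of immature and mature cells under the limit were raised to it. Within sorts 1 to 3 none of these 5 falls passed (adjusted p from 0.0731 to 0.314), while within sorts 8 to 11 all 5 did (adjusted p from 0.000103 to 0.00837). The fall from pre-BI to small pre-BII cells did not pass in the values as deposited (log2 difference −1.41, adjusted p = 0.0971).

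**Figure D3:**
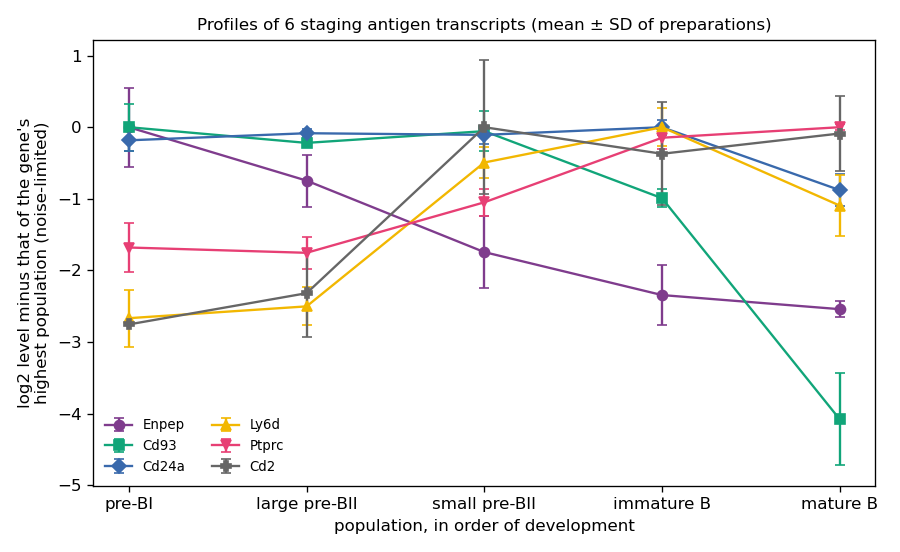
Mean log2 level of 6 members in each population, in order of development, minus that of the gene's own highest population, with values raised to the noise limit; bars are the SD over 5 or 6 preparations. Ptprc, Cd2 and Ly6d climb from pre-BI or large pre-BII cells, Enpep declines along the series, and Cd93 drops by 4.08 from pre-BI to mature cells while Cd24a drops only in mature cells.

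Counted by comparison, 1 to 3 of the member probe sets changed at each consecutive step. From pre-BI to large pre-BII cells 1 of 11 probe sets rose (Cd2) and 0 fell by limma (2 lower at an unadjusted p under 0.05), where 0.865% of all tested probe sets rose and 1.06% fell. From large to small pre-BII cells 3 rose (Ptprc, Cd2, Ly6d) and 0 fell (1 lower unadjusted), where 2.32% rose and 3.21% fell. From small pre-BII to immature cells 1 rose (Ptprc; 2 with sort number as a replicate block, Ly6d being the other) and 0 fell (2 lower unadjusted), where 1.3% rose and 0.894% fell. From immature to mature cells 0 rose (0 unadjusted) and 3 fell (Cd24a, Cd93, Ly6d), where 0.622% rose and 0.739% fell. The median log2 difference of the 11 at these 4 steps was −0.07, 0.69, −0.37 and −0.43, beside 0.00, 0.06, −0.02 and 0.01 for all tested probe sets, and since 5 of the 11 lie under the noise limit in nearly all preparations these medians partly describe background.

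Over most longer spans, though not from small pre-BII to mature cells, more members passed than at any single step, as did more of all tested probe sets. Against pre-BI cells, 3 rose and 1 fell in small pre-BII cells (3.45% of all tested probe sets rose and 4.68% fell). In immature cells 3 rose and 3 fell (4.32% and 4.46%), and in mature cells 3 rose and 4 fell (4.68% and 5.84%). The 3 that rose were Ptprc, Cd2 and Ly6d each time, and the 4 that fell in mature cells were Kit, Cd24a, Cd93 and Enpep. Against large pre-BII cells 3 rose and 1 fell in immature cells (4.15% and 4.08% of all) and 3 rose and 3 fell in mature cells (5.27% and 5.59%). Against small pre-BII cells 1 rose and 2 fell in mature cells (2.21% and 2.31%). Of the 66 tests in these 6 pairs of populations 30 passed, where all 10288 tested probe sets gave 5250 calls over the same 6 pairs. The pairs share populations, so their counts are not independent.

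Set beside the surface pattern, the transcript moved the same way over the whole series for Cd2, Cd93, Cd24a and Enpep. Cd2 was brighter from small pre-BII cells on than in pre-BI cells, while its rise in large pre-BII cells rested on values under the noise limit. The other 3 were lower in mature than in pre-BI cells. For Cd24a that difference did not pass with trimmed-mean or 75th-percentile scaling (limma, adjusted p = 0.2625 and 0.1616). Enpep was already 3.35-fold lower in small pre-BII cells, and Cd93 1.99-fold lower in immature cells, than in pre-BI cells. Ptprc was highest in immature and mature cells alike, which the B220low and B220high gates separate. Kit fell by the test at a level near background. For CD25 and CD43 the transcript gave no measurable pattern, and the samples do not include a measurement of the proteins beyond the gates.

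**Figure D4:**
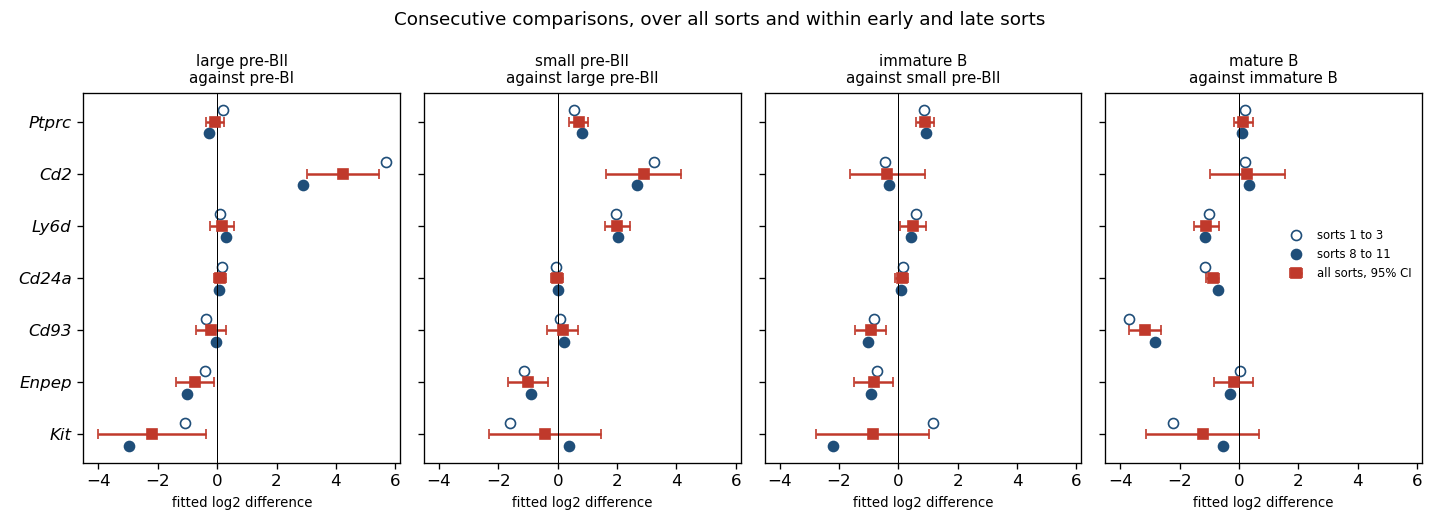
Fitted log2 difference of the 7 members that varied at each of the 4 consecutive steps, from all sorts (red squares with 95% intervals), sorts 1 to 3 (open circles) and sorts 8 to 11 (filled circles). The called differences have the same sign in either block, for example 1.98 and 2.03 for Ly6d from large to small pre-BII cells. Among differences that were not called, Kit changes sign between blocks at the steps to small pre-BII and to immature cells. So do Ptprc at the step to large pre-BII, Cd24a at the step to small pre-BII and Enpep at the step to mature cells.

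Of the 21 pairs among the 7 members that varied, 12 had a Pearson r above 0.6 in size. Over the 26 preparations, which share populations, arrays and sorts, Pearson's r of log2 intensity was 0.853 for Cd24a with Cd93, 0.773 for Kit with Enpep and 0.764 for Cd2 with Ly6d, and −0.808 for Ptprc with Enpep, −0.782 for Cd2 with Enpep and −0.779 for Enpep with Ly6d. These are descriptions of 26 points in 5 groups and carry no test.

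By the same measure, the other genes whose pattern was most like that of a member were named for each member that varied. For Ptprc these were Cd74, the invariant chain of MHC class II (r = 0.945), Il4ra, the interleukin-4 receptor alpha chain (0.916), and Ms4a1, which encodes CD20 (0.916). The mean of Cd74 went from 1074 in pre-BI to 20317 in mature cells. For Cd93 they were the transcription factor gene Myb (0.952), Vpreb3 (0.906) and the proteasome subunit gene Psmd8 (0.896), and for Cd24a they were Vpreb3 (0.914), the sodium pump subunit gene Atp1b1 (0.865) and Myb (0.855), so Myb and Vpreb3 stood on both lists.

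For Enpep the most similar were Ran, a nuclear transport GTPase (0.887), Dtl (0.878) and the thymidine kinase gene Tk1 (0.877), and for Kit they were the galectin gene Lgals1 (0.799), the uridine kinase gene Uck2 (0.795) and Dbi (0.791). Cd2 was most like Btg1 (0.906), the adhesion molecule gene Icam2 (0.89) and the kinase gene Blk (0.882). Ly6d was most like Slc25a53 (0.94), the lambda light chain constant gene Iglc1 (0.896) and Jarid2 (0.894). Kit had the lowest values of r, and its own level lay mostly under the noise limit.

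Other antigens and receptor components used to stage B lineage cells were read for comparison. Of 28 listed genes 22 were tested, by 27 probe sets, of which 18 varied over the populations by the F test, against 14.8% of all tested probe sets. From pre-BI to large pre-BII cells 0 rose and 3 fell (0.865% and 1.06% of all). From large to small pre-BII 4 rose and 1 fell (2.32% and 3.21%). From small pre-BII to immature cells 5 rose and 0 fell (1.3% and 0.894%). From immature to mature cells 3 rose and 2 fell (0.622% and 0.739%). At the immature step 5 of these 27 probe sets passed, beside 1 of the 11 of the members, and no test of that difference was made.

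The rule for naming took 7 genes of this list, with adjusted p-values from limma. Igll1, a surrogate light chain gene, fell at the first step, from 3440 to 429 (adjusted p = 0.0253). It fell again to 48 in small pre-BII cells (adjusted p = 0.00677), and was under the noise limit from there on. Cd22, an inhibitory coreceptor, rose from a mean of 347 in small pre-BII to 3185 in immature cells (adjusted p = 2.85e-05). Ms4a1 rose at the same step by both of its probe sets, from 301 to 7130 and from 1934 to 12026 (adjusted p = 2.58e-10 and 8.66e-08). The dimmer of these probe sets had also risen from large to small pre-BII cells, from 73 to 301 (adjusted p = 0.0202), and the brighter had not (adjusted p = 0.839). Cd22 and Ms4a1 encode B cell surface proteins that came up at the step where Ptprc rose 1.87-fold.

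Fcer2a, which encodes CD23, rose from 84 in small pre-BII to 1537 in immature cells (adjusted p = 3.32e-07) and to 6485 in mature cells (adjusted p = 0.00109). Cd55, the complement decay-accelerating factor, rose from 75 in large to 364 in small pre-BII cells (adjusted p = 7.03e-05). It rose again from 465 in immature to 2344 in mature cells (adjusted p = 1.1e-05). Cd40, a costimulatory receptor, rose from −67 in small pre-BII to 378 in immature cells (adjusted p = 3.36e-06). Vpreb3, a pre-B cell receptor chaperone gene, fell from 8444 in immature to 798 in mature cells (adjusted p = 4.15e-06), the step at which Cd93 and Cd24a fell.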

How the data were processed

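RNA of 26 sorted preparations was read on 2 oligonucleotide array sets with different probe sets. The authors deposited 1 linear intensity per probe set and array, negative values included (19.7 to 28% of the values per array in the first set, 33.9 to 42.3% in the b set). Labelling, scanning, summarisation and scaling are not given in the sources used here. Symbols came from the array annotation tables.

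After 122 control probe sets were left out, each table was quantile-normalised, values under its 40th percentile (87.6 and 6.89) were raised to it, log2 was taken and arrays of a preparation were averaged. Probe sets above the floor in at least 5 of 26 preparations (10288) were fitted once with limma 3.58.1 in R 4.3.3 (lmFit, eBayes with trend) and adjusted by Benjamini-Hochberg within each comparison. The script was tested on simulated data. No array depth exists, and the number of arrays limits the precision.

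Members and gene lists were chosen with earlier results of these data known. All member probe sets are named, with the 3 genes of highest Pearson r to each that varied, and up to 8 probe sets of the other staging antigens (at least 2-fold and passing in a consecutive comparison, smallest F test p); Cd74's level and marker genes of other cells were named outside this rule. Alternatives were other scalings, floors and filters, blocks of sorts and single preparations left out. The labels number the sorts without tying equal numbers to a common day or mouse. Deviations of equal-numbered preparations correlated above 0.1 in every pair for large pre-BII and pre-BI (0.113 to 0.297), immature and small pre-BII (0.137 to 0.25) and mature and immature cells (0.119 to 0.206), and were taken to pair there only. Unequal-numbered preparations were not correlated, so these values have no baseline and do not establish pairing.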

Additional observations from a re-analysis of the deposited data

Results flagged for a closer look

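Of the members, 3 values stood apart from the other preparations of their population by Dixon's criterion, among 31 population groups of member probe sets with a value above the noise limit. Chance alone marks about 1 in 20 such groups. Il2ra on the first set read 437 in small pre-BII sort 1, where the other 4 preparations read 71 to 144, and this was its only value above the noise limit. Ly6d read 3394 in pre-BI sort 2 against 1549 to 2190 in the other 5, and 3283 in large pre-BII sort 2 against 2110 to 2284 in the other 4. Both Ly6d values came from sort 2.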

How the results depend on the processing

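Of 45 passing results for single members (7 F tests and 38 pairs of populations), 0 changed sign under any alternative and none was lost in the 26 fits that left out 1 preparation each, but 25 lost their call under at least 1 other setting: 19 within sorts 1 to 3, 7 as deposited, 5 with trimmed-mean and 5 with 75th-percentile scaling, 4 with the 25th percentile floor and 3 within sorts 8 to 11, and 1 each with the other floors. Members varying by the F test were 7, but 6 with 75th-percentile scaling (Cd24a lost, adjusted p = 0.178), 6 with the noise limit floor, which left Kit untested, and 5 within sorts 1 to 3. The count of members that changed from pre-BI to large pre-BII cells went from 1 to 0 with the floor at the noise limit and within sorts 8 to 11. From small pre-BII to immature cells it went from 1 to 0 in the values as deposited and within sorts 1 to 3, and to 2 with trimmed-mean scaling, the 60th percentile floor, the noise limit floor, separate fits of the array sets, within sorts 8 to 11 and with sort number as a replicate block; leaving out single preparations gave 1 to 2, with 2 without small pre-BII sort 1 or mature B sort 1, 3 or 11. From immature to mature cells it went from 3 to 1 with trimmed-mean scaling and 0 within sorts 1 to 3, and in the other 6 pairs from 30 to 18 within sorts 1 to 3. Over all probe sets, values as deposited gave 700 by the F test (main 1519), 47 of 198 from pre-BI to large pre-BII, 201 of 569 to small pre-BII, 75 of 226 to immature, 46 of 140 to mature cells and 2316 of 5250 in the other pairs. Sorts 1 to 3 alone gave 389, 11, 114, 43, 10 and 1422 in the same order, and sorts 8 to 11 gave 72, 353, 125 and 64 at the 4 steps; these use fewer preparations. The first step also gave 129 with the 25th percentile floor, 302 with the 60th, 300 with the noise limit and 327 with the replicate block. On the b set the 25th percentile was negative, so 1 was used. The replicate block also gave adjusted p = 0.0184 for Enpep from large to small pre-BII, 0.0443 for Cd93 from large pre-BII to immature and 0.0251 for Ly6d from small pre-BII to mature cells, pairs whose sorts share only a number, and beside these and Ly6d above it changed no other member call. Trimmed-mean scaling moved the median of all probe sets from large to small pre-BII cells to 0.15 (main 0.06), and the share of higher calls there was 42% by the main scaling, 20.9% as deposited, 33.7% by the 75th percentile and 48.8% by the trimmed mean. Elsewhere the cause was not tested. Signal over background limits Kit, Il2ra, Spn and Mme.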
